A study of Mus musculus with 3 samples.

Results

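The TRIM genes encode the tripartite motif family of ubiquitin ligases. Members were all annotated genes whose symbol is Trim followed by a number and at most 1 letter, with 1 matching symbol left out, which gave 67 genes of the 55536 annotated ones. Their RNA was measured in 3 total RNA-seq libraries from the nuclear fraction of bone-marrow-derived macrophages of C57BL/6J mice. All cells had received lipid A, a TLR4 agonist from the membrane of Gram-negative bacteria, at 100 ng/ml for 12 h, had been kept without it for 12 h, and had then received lipid A at 100 ng/ml for 15 min. One label field calls the fraction nuclear and another calls the RNA nucleoplasmic. The libraries form 1 group with no untreated or singly treated library, so each value below is a level in restimulated cells, and none is a response. Replicates 1 and 3 were made from 1000 ng of RNA and replicate 2 from 500 ng. All 3 carry 1 donor identifier, and nothing says that the cultures came from separate mice.

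A TRIM protein typically carries a RING finger that binds an E2 enzyme, 1 or more B-box zinc fingers and a coiled coil through which it pairs with other copies, and a C-terminal part that binds the target. The RING finger transfers ubiquitin from the E2 to the target, which marks the target for destruction or builds chains on which signalling complexes assemble. In macrophages, family members are known to tune Toll-like receptor, RIG-I, cGAS and STING signalling, to bind viral capsids, and, as a separate branch with a PHD finger and a bromodomain, to act on chromatin.

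Library depth, as the sum of expected counts over annotated genes, was 23826101, 19312032 and 21730342 in the order of the replicate numbers, of which 61688, 56300 and 59089 belonged to TRIM members. All 9 macrophage markers were detected, and their summed level ran from 2371 to 3649 TPM (a level per transcript length, scaled to a fixed sum in each library), highest in replicate 1. None of the fixed markers of granulocytes (6 genes), T and NK cells (5), B cells (4), erythroid cells (4), fibroblasts (4), skeletal muscle (4) or neurons (4) reached 1 TPM in every library. The granulocyte markers summed to between 1.44 and 3.72 TPM, highest in replicate 1, with Elane at 0, and each other list summed to at most 0.40 TPM in any library. The part of these markers in the TRIM levels was not tested.

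In these nuclei 35 of the 67 members were detected, which here means 1 TPM or more in each of the 3 libraries. That is 52.2% of members, against 42.8% of the 22015 protein-coding genes of the nuclear genome. The median log2(TPM + 1) over members was 1.16 ± 0.14 (SD, n = 3), against 0.44 ± 0.03 over those protein-coding genes. Among detected genes alone the medians were 3.50 ± 0.03 for members and 3.25 ± 0.10 for protein-coding genes. A mean TPM of at least 10 was reached by 18 members, 26.9% of the family, against 19.1% of protein-coding genes. Together the members held 0.345% ± 0.020 of the TPM of nuclear protein-coding genes, or 649, 811 and 709 TPM in replicates 1, 2 and 3. In bulk RNA, fewer cells with a transcript and less transcript per cell cannot be told apart.

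The family total was concentrated in few genes. The 2 highest members, Trim30a and Trim30d, held 31.6% ± 2.90 of it, and the 12 highest held 77.5% ± 0.627. These 12 were Trim30a, Trim30d, Trim12a, Trim34a, Trim14, Trim26, Trim21, Trim35, Trim28, Trim41, Trim30c and Trim8, of which 5 lie in 1 cluster on chromosome 7. The order was clear at the top and mostly not below it. Of the 34 neighbouring pairs in the order of the 35 detected members, 10 kept their order in all 3 libraries, and 6 had ranges that did not overlap. Those 6 steps fell between Trim30a and Trim30d, Trim30d and Trim12a, Trim26 and Trim21, Trim11 and Trim27, Trim39 and Trim65, and Trim65 and Trim6.

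**Figure D1:**
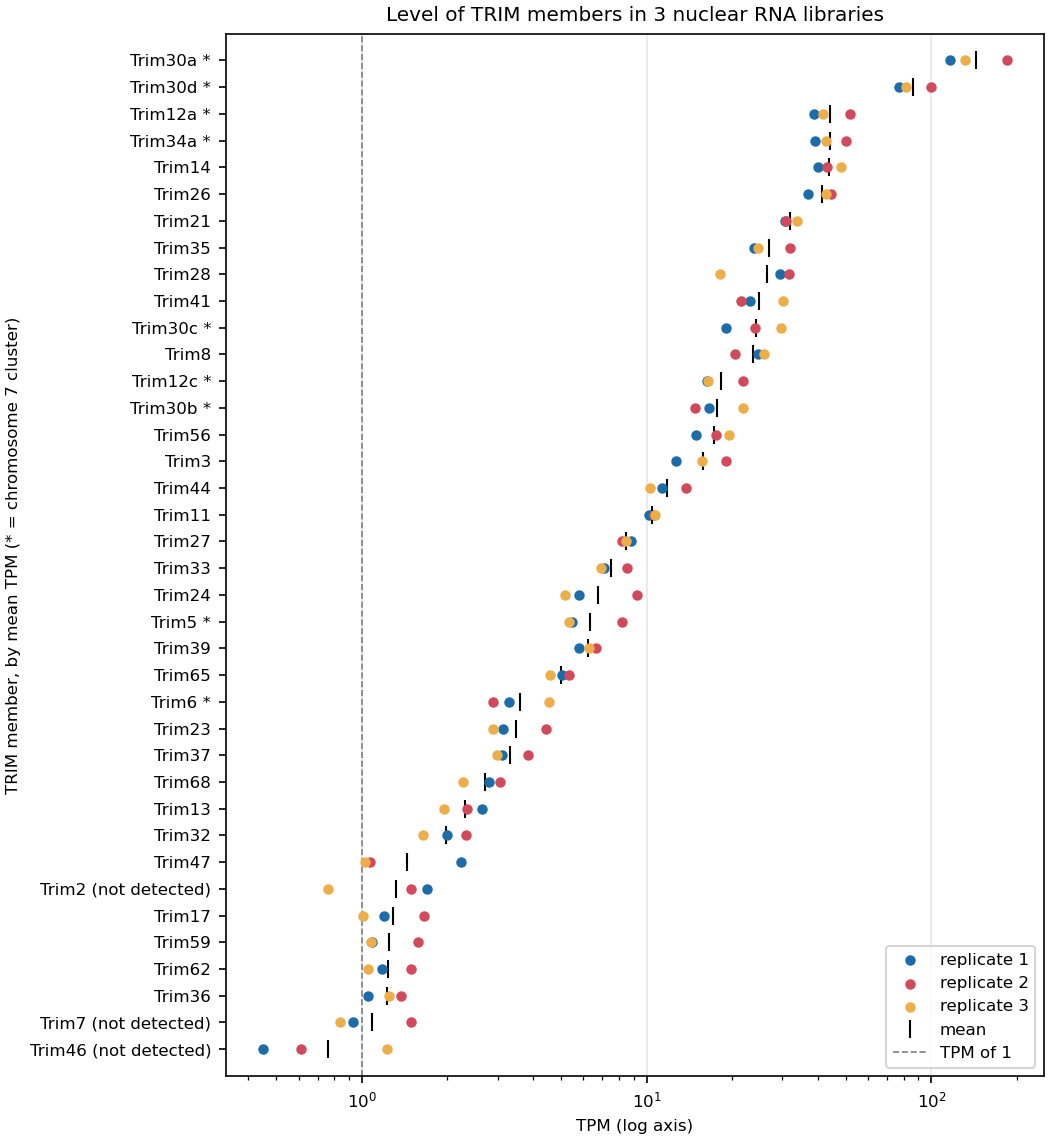
TPM on a log axis (x) of the 35 detected TRIM members and the 3 highest undetected ones (y, ordered by mean), 1 point per library, with a bar at the mean and a dashed line at a TPM of 1. Trim30a, at 116 to 184 TPM, and Trim30d, at 76.9 to 99.9 TPM, stand above all other members in each library, and asterisks mark members of the chromosome 7 cluster.

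The 2 leading members were antiviral copies of chromosome 7. Trim30a, a ligase known to restrain TLR signalling to NF-kappaB through the adaptors TAB2 and TAB3, had 116, 184 and 132 TPM in replicates 1, 2 and 3 (143.9 ± 35.3, SD, n = 3) and lay above 99.2% of protein-coding genes. It was the highest member in each of the 3 libraries, with its own highest value in replicate 2. Its neighbour Trim30d had 76.9, 99.9 and 81.7 TPM. The ratio of Trim30a to Trim30d was 1.51, 1.84 and 1.61, so Trim30a was the higher copy in every library. Trim30c had 19.0, 24.1 and 29.7 TPM and Trim30b had 16.6, 14.8 and 21.8 TPM. These 2 copies were both highest in replicate 3, unlike Trim30a and Trim30d, and their ranges overlapped.

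The cluster also holds relatives of human TRIM5, a capsid-binding restriction factor of retroviruses. By mean TPM Trim12a, Trim12c and Trim5 ranked 3, 13 and 22 in the family. Trim12a had 38.8, 51.8 and 41.7 TPM, Trim12c had 16.4, 21.7 and 16.5 TPM, and Trim5 had 5.46, 8.21 and 5.35 TPM. All 3 were highest in replicate 2, and the ratio of Trim12a to Trim12c stayed at 2.37, 2.38 and 2.53. That ratio depends on the quantity used. By coding isoforms alone Trim12a had 20.4, 26.0 and 20.4 TPM, closer to Trim12c, which kept its values. Expected counts, which are not per length, were 2106, 1983 and 1864 for Trim12c and 1844, 1748 and 1783 for Trim12a. The leading coding isoform has 3740 bases in Trim12c and 1486 bases in Trim12a, so these counts do not rank the 2 levels. Trim34a had 38.9, 50.3 and 42.7 TPM, while its copy Trim34b had 0.30, 0.50 and 0.19 TPM and was not detected. Trim34a was thus 130, 101 and 225 times as high as Trim34b. These ratios rest on 17.64, 21.01 and 10.15 expected counts of Trim34b, and the distance was smaller in the other deposited quantification. Trim6, which builds free ubiquitin chains that activate the kinase IKK-epsilon, was the lowest detected copy with 3.30, 2.90 and 4.56 TPM.

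These 10 copies lie side by side on mm10 chromosome 7 from 104218793 to 104507849, a span of 289 kb, in the order Trim6, Trim34a, Trim5, Trim12a, Trim34b, Trim12c, Trim30b, Trim30c, Trim30a and Trim30d. Of the 10, 9 were detected, and together they held 53.5% ± 2.68 of the family's TPM, or 389 ± 63.9 TPM. The genes around the cluster had little or no RNA. Of the 33 other genes within 200 kb on either side, 0 had a mean TPM of at least 1. The 19 olfactory receptor genes among the neighbours reached at most 0.13 TPM, and 11 of them were at 0 in all libraries. Inside the cluster 8 further genes are annotated, of which 2 had a mean TPM of at least 1. The processed pseudogene Gm16464, within Trim30d on the same strand, had 13.58, 14.02 and 13.41 TPM, and Gm47248, antisense to Trim34a, had 0, 3.10 and 0 TPM.

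**Figure D2:**
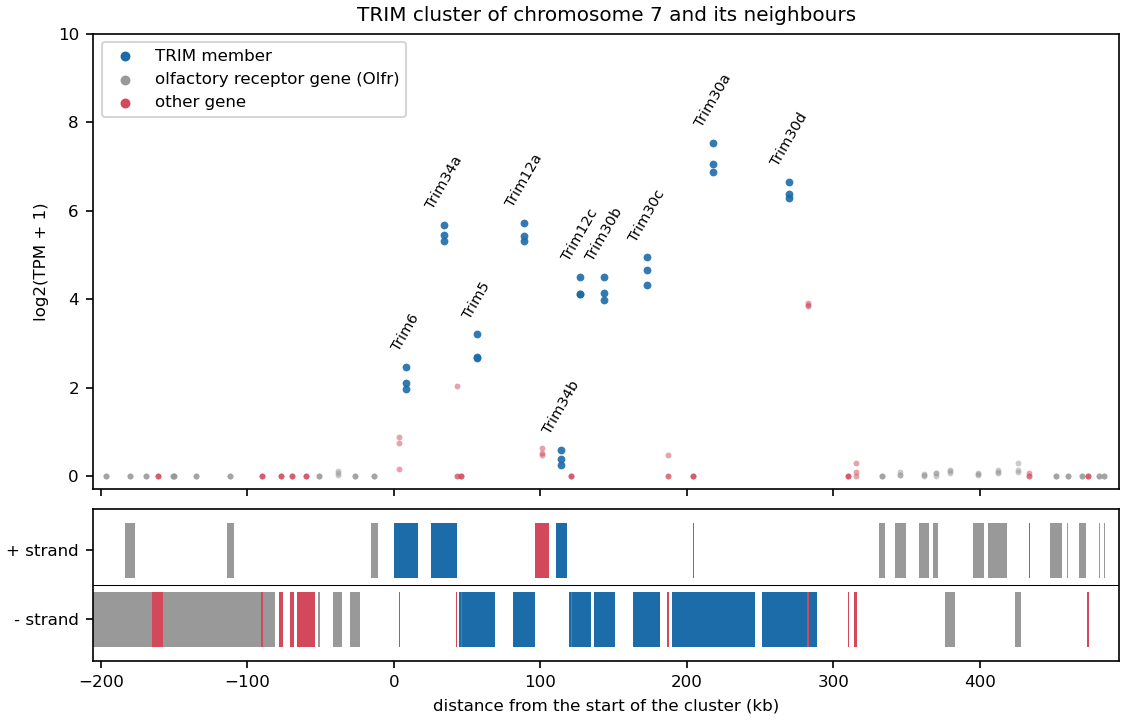
Upper panel, log2(TPM + 1) of each gene (y) in each of 3 libraries at its distance from the start of the cluster in kb (x). Lower panel, gene spans by strand, with TRIM members in blue, olfactory receptor genes in grey and other genes in red. TRIM genes other than Trim34b stand above the baseline, and the 33 flanking genes all have a mean TPM under 1.

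Reads that fit more than 1 copy limit the split within this cluster. Windows of 50 bases were taken from the most abundant coding transcript of a detected member and from the longest transcript of an undetected one. Of the windows of Trim34b, 59.0% also occurred in Trim34a, and 41.5% of those of Trim34a occurred in Trim34b. The share found in another gene was 38.1% for Trim5, 33.7% for Trim12c and 31.2% for Trim12a. It was 8.29% for Trim30d and 6.53% for Trim30a, whose levels therefore rest mostly on sequence of their own. Of the 35 detected members, 18 shared no window with another gene and 6 shared over 10%. These shares describe sequence and are not the uncertainty of a level. The deposited posterior SD of the count, which holds the uncertainty of sharing reads, is a separate measure. In replicate 1 it was 9.25 for Trim34a at 3334 counts, 1.44 for Trim34b at 17.6 and 3.28 for Trim5 at 685. For Trim12a it was 1.44 at 1844 counts and for Trim12c 2.91 at 2106. The other deposited quantification, in kallisto format, gave Trim34b 61.1 counts in replicate 1. The posterior SD thus does not cover the difference between the 2 quantifications.

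Letters of the interferon-stimulated response element, a site that IRF proteins are known to bind, were searched in the promoters of the family, after the levels were known. RefSeq promoters of assembly GRCm38.p6, 250 bases before to 50 bases after a transcript start, were given for 52 of the 67 members. The letters GAAA, any 2 bases and GAAA, on either strand, occurred in at least 1 entry of 9 of the 52, which is 17.3%, against 3.99% of 27025 genes with a promoter entry. The 9 were Trim30a, Trim30d, Trim12a, Trim34a, Trim26, Trim21, Trim12c, Trim5 and Trim2, of which 6 lie in the chromosome 7 cluster. That is 6 of the 10 cluster members, against 2 of the 17 detected members with an entry outside the cluster. The 2 sets are unlike, because the 10 include the undetected Trim34b. Trim2, undetected and outside the cluster, is in neither. Cluster copies with closely alike promoters are counted separately in the 17.3%. The promoters of the 2 highest members and of 2 others with the letters close to the start are shown 5' to 3' along the gene's strand, with the matched letters in capitals. They come from chr7:104465144-104465443 (Trim30a, minus strand), chr7:104507800-104508099 (Trim30d, minus), chr7:104244207-104244506 (Trim34a, plus) and chr7:102565433-102565732 (Trim21, minus).
Trim30a: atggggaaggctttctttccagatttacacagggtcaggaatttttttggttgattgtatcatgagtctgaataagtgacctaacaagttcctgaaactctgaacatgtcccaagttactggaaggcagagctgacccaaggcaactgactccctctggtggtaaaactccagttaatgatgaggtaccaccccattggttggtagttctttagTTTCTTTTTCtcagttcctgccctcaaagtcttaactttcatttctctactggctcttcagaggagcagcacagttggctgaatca
Trim30d: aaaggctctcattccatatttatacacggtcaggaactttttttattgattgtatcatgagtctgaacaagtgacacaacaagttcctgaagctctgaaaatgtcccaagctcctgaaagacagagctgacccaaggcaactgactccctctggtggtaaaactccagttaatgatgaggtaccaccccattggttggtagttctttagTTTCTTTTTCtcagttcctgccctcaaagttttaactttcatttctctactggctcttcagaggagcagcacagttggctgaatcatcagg
Trim34a: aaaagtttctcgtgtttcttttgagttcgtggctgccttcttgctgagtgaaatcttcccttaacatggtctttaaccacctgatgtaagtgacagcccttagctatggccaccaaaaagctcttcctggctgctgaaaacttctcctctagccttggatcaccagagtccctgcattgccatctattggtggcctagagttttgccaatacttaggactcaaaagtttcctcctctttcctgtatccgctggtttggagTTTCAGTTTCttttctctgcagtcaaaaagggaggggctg
Trim21: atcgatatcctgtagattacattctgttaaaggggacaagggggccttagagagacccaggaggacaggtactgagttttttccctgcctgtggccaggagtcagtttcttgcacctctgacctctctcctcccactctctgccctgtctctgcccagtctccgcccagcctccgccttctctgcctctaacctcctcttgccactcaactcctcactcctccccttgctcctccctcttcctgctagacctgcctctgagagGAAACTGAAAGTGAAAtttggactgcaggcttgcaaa

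With the first transcribed base counted as 1, the match began at position -36 in Trim30a, -41 in Trim30d and 11 in Trim34a, on the strand opposite to the gene. In Trim21 overlapping matches began at 14 and 20 on the gene's own strand. A further annotated start of Trim30a had the letters at position 3. The promoters of Trim30a and Trim30d were 90.8% identical, the closest pair in the cluster. Those of Trim5 and Trim12c were 82.8% identical, those of Trim12a and Trim12c 72.9%, and those of Trim5 and Trim12a 67.1%. Stretches of 40 bases centred on the match are shown for these copies and for Trim26 on chromosome 17, and cover only a small part of the promoter. They come from chr7:104315461-104315500 (Trim12a, minus), chr7:104353354-104353393 (Trim12c, minus), chr7:104288131-104288170 (Trim5, minus) and chr17:36836974-36837013 (Trim26, plus).
Trim12a: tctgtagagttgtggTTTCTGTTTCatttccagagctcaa
Trim12c: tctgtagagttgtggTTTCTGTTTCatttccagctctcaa
Trim5: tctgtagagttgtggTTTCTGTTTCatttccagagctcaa
Trim26: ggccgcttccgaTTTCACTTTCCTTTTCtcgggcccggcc

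The Trim12a and Trim5 stretches had 0 differing bases, and Trim12c differed from each at 2 of 40 bases. Their matches began at positions 11, -49 and -29 in Trim12a, Trim5 and Trim12c, and those of Trim26 overlapped from -160 and -154. Trim5 had 6.34 ± 1.62 TPM and Trim12a 44.1 ± 6.82 TPM, and the part of this stretch in either level was not tested. The letters occurred in 8 of 26 detected and in 1 of 26 undetected members with an entry. The median of mean TPM was 41.3 over the 9 members with the letters, 0.553 over the 43 without, and 4.91 over the 18 detected ones without. Because 6 of the 9 are cluster copies and the search followed the levels, these values cannot test a link between letters and level. The members with the letters ran from 1.32 TPM (Trim2) to 143.9 TPM (Trim30a). Those without reached 26.5 TPM (Trim28).

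Letters of 3 further motifs were searched on both strands. The GAS letters TTCNNNGAA occurred in 6 of 52 members (11.5%, against 9.55% of genes), with Trim30c the detected one among them. The kappaB letters GGGA, any 4 bases and CC occurred in 10 of 52 (19.2%, against 22.9%) and in 0 of the 10 cluster members. The PU.1 letters GAGGAAGT occurred in 5 of 52 (9.62%, against 3.69%), among them Trim12a, Trim12c and Trim5. No match of 1 motif overlapped a match of another. A match describes letters in this window and is not a measured binding site.

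Of the 14 fixed members known from innate immune signalling outside the cluster, 13 were detected, and they held 30.9% ± 2.48 of the family's TPM. Trim14, a scaffold at the adaptor MAVS that lacks a RING finger, had 40.1, 42.9 and 48.2 TPM and lies on chromosome 4 from 46493781 to 46536141. Trim26, which is known to act on IRF3 in the nucleus, had 36.8, 44.3 and 42.8 TPM (chromosome 17, 36837134 to 36859398). Trim21, the cytosolic receptor for antibody-coated particles, had 30.6, 31.0 and 33.8 TPM (chromosome 7, 102557921 to 102565486). The ranges of Trim14 and Trim26 overlapped, and Trim21 lay below both in each library.

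Trim35, reported to act on IRF7, had 23.9, 31.9 and 24.7 TPM. Trim8, which promotes NF-kappaB activation through the kinase TAK1, had 24.5, 20.5 and 25.9 TPM. Replicate 2 was the highest library for Trim35 and the lowest for Trim8. Trim56, a ligase of the cGAS and STING pathway, had a mean of 17.2 ± 2.28 TPM, and Trim11, known to bind the DNA sensor AIM2, had 10.5 ± 0.282 TPM. Trim27, a brake on IKK and TBK1, had 8.49 ± 0.291 TPM, Trim39 had 6.24 ± 0.427 TPM, and Trim65, a ligase of the RNA sensor MDA5, had 5.05, 5.36 and 4.60 TPM. Trim23, whose ARF domain binds GTP, had 3.48 ± 0.829 TPM, Trim13 of the endoplasmic reticulum had 2.31 ± 0.346 TPM, and Trim32 had 1.98 ± 0.340 TPM. Dleu2, on the opposite strand, overlaps 3108 bases of Trim13 and had 57.1 TPM, and 15.1% of the windows of Trim13 also occurred in Gm9359. The part of these genes in the level of Trim13 was not tested. The undetected gene of this list was Trim38, a known regulator of TLR signalling, which had 0 counts in every library. The kallisto-format table gave it 3, 3 and 2 counts, so both quantifications put it at or near 0.

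Of the 4 members of the chromatin branch, 3 were detected. Trim28, also called KAP1, the corepressor of KRAB zinc finger proteins that silences retroelements, had 29.5, 31.7 and 18.2 TPM (chromosome 7, 12999114 to 13031035). Its replicate 3 stood well below the others, and its SD of log2(TPM + 1), 0.42, was the largest among members averaging 1 TPM or more. Trim33, which binds SMAD4 and acetylated histones, had 7.51 ± 0.896 TPM. Trim24, a bromodomain reader and nuclear receptor cofactor, had 5.81, 9.26 and 5.19 TPM, highest in replicate 2. Trim66, which is best known from germ cells, had 0.05 ± 0.05 TPM.

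The drop of Trim28 in replicate 3 lay in short isoforms that are not annotated as coding. Its coding isoform Trim28-201 had 7.91, 7.15 and 7.87 TPM, a spread of 0.428 TPM. The retained-intron isoform Trim28-203, of 565 bases, had 10.2, 14.7 and 5.83 TPM, and the processed transcript Trim28-210, of 851 bases, had 4.48, 5.35 and 0.24 TPM. In expected counts Trim28 had 1235, 838 and 923, and edgeR put replicate 3 at a log2 fold change of -0.08 ± 0.25 (SE) from the others, with an adjusted p of 1.00. By coding isoforms alone Trim28 ranked 17 in the family instead of 9. Zbtb45, on the opposite strand, overlaps 6137 bases of Trim28 and had 2.98 TPM, and no source used here says whether the counting used strand.

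Trim41, a ligase of protein kinase C, had 23.0, 21.5 and 30.2 TPM, highest in replicate 3, and overlaps 31 bases of Rack1 (36.3 TPM) on the opposite strand. Of the 5 members with NHL repeats or a filamin domain, 2 were detected. They were Trim3, known from endosomal sorting, at 12.7, 19.1 and 15.7 TPM, and Trim32. Trim2, a neuronal member of that list, had 1.70, 1.49 and 0.76 TPM and missed detection in replicate 3. All 4 members with a membrane anchor, an ARF domain or a MATH domain were detected at low levels. Trim37, known from peroxisomes and centrosomes, had 3.32 ± 0.467 TPM and the membrane-bound Trim59 had 1.25 ± 0.280 TPM. Of 5 members without a RING finger, Trim14 and Trim44 were detected. Trim44, which carries a zinc finger of the kind found in ubiquitin proteases, had 11.8 ± 1.79 TPM.

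The detected members of the lower end were close to the threshold. Trim68 had 2.70 ± 0.404 TPM. Trim47 had 2.24, 1.07 and 1.03 TPM, about double in replicate 1. Trim65 on the same strand overlaps 5365 bases of Trim47. The 4 lowest detected were Trim17 with 1.20, 1.65 and 1.01 TPM, Trim59 with 1.09, 1.57 and 1.08 TPM, Trim62, a ligase of CARD9, with 1.18, 1.49 and 1.05 TPM, and Trim36 with 1.05, 1.37 and 1.25 TPM. Each was highest in replicate 2, and their ranges overlapped. Trim17 shares 18.3% of its windows with the histone gene Hist3h2a, which overlaps it on the same strand and had 34.6 TPM. Its count was also the least certain among members with a mean expected count of at least 10. The posterior SD of its count was 0.824 times the square root of the posterior mean count, against 0.353 for Trim34b, 0.216 for Trim34a, 0.176 for Trim43c and 0.119 for Trim5. The value was 0 for Trim13, although 15.1% of its windows also occurred in Gm9359, so a value of 0 does not show that no sequence is shared.

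Of the 32 undetected members, 20 had at least 1 count and 12 had 0 counts in every library. The 3 highest were Trim2, Trim7 with 0.93, 1.49 and 0.84 TPM, and Trim46 with 0.45, 0.61 and 1.23 TPM. Each of them passed 1 TPM in at least 1 library and fell below it in another. Krtcap2, on the opposite strand, overlaps 344 bases of Trim46 and was also highest in replicate 3, with 4.66, 5.54 and 7.26 TPM. The others with counts, from Trim16 at 0.747 TPM and Trim45 at 0.647 TPM down to Trim9, Trim55 and Trim72 at 0.0033 TPM, stayed under 1 TPM in each library. They also included Trim10, Trim15, Trim29, Trim34b, Trim40, Trim43a, Trim43b, Trim43c, Trim50, Trim66, Trim69 and Trim75.

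Of the 8 COS-box members of microtubules and muscle, 1 was detected, Trim36, and 4 had 0 counts. Of the 9 members known from the germline and early embryo, 0 were detected, and they summed to 1.03 ± 0.385 TPM. The 12 members at 0 were Trim31, Trim38, Trim42, Trim52, Trim54, Trim58, Trim60, Trim61, Trim63, Trim67, Trim71 and Trim80. A count of 0 allows up to 3 counts, which corresponds to 0.00900 to 0.118 TPM over these genes and libraries, for counting error only. The kallisto-format table put 5 of them at 0 as well (Trim31, Trim42, Trim54, Trim60 and Trim61). It gave at least 10 counts in each library to 4 others, among them Trim52 with 109, 135 and 123 counts and Trim67 with 95.9, 146 and 82.0 counts. For these the 2 tables differ on whether the gene was seen, so their absence rests on the RSEM-format table.

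**Figure D3:**
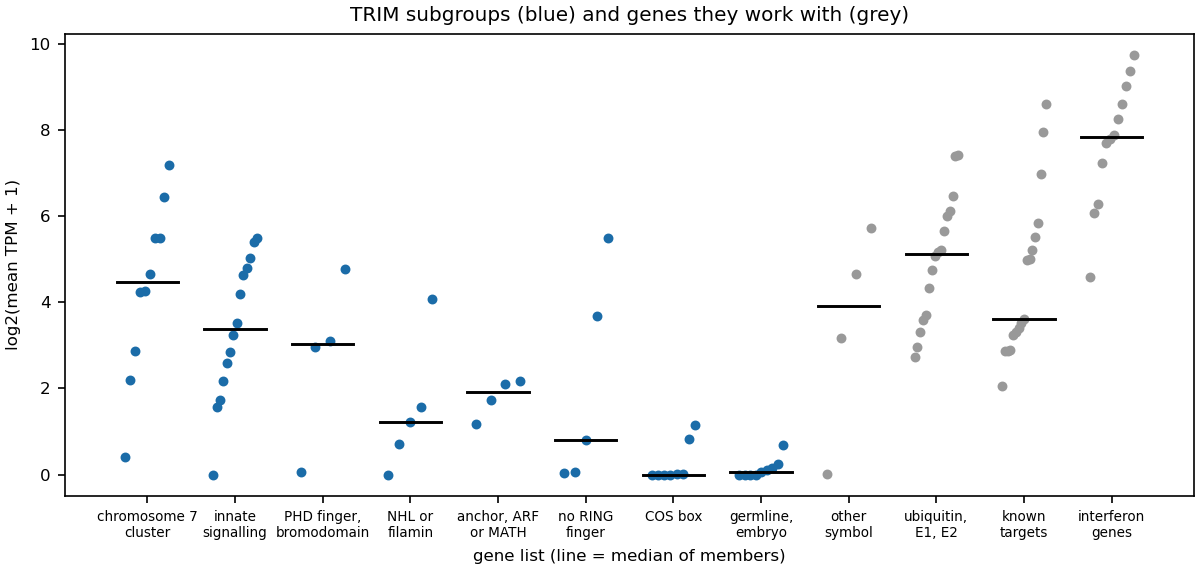
log2(mean TPM + 1) over 3 libraries (y) of each gene in the fixed lists (x), with TRIM subgroups in blue, other lists in grey and a line at the median of members. The chromosome 7 list is the highest TRIM subgroup by its median, and the COS-box and germline lists lie near 0.

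The listed genes with which TRIM ligases work were detected wherever found by symbol, against 42.8% of nuclear protein-coding genes. The lists hold known genes and were chosen with earlier results of these data known, so full detection is not a finding about the family. All 16 genes for ubiquitin, E1 and E2 enzymes were detected. Among them were Uba7, the E1 enzyme of ISG15, at 166 ± 35.9 TPM, Ubb at 87.1 ± 8.89 TPM and, as the lowest, Ube2v2 at 5.68 ± 1.72 TPM. Of 18 receptors, adaptors and kinases on which TRIM ligases are known to act, 17 were found by symbol and all 17 were detected. Irf7 led with 386 ± 108 TPM, followed by Ikbke with 247 ± 33.5 TPM and Ddx58, which encodes RIG-I, with 124 ± 10.3 TPM. Tab2 and Tab3, the known targets of the Trim30a protein, had 31.3 ± 6.77 and 3.18 ± 0.650 TPM, and Tab3 was the lowest of the list. All 12 interferon-stimulated reference genes were detected, with a median log2(TPM + 1) of 7.86 ± 0.30, against 4.51 ± 0.26 for the chromosome 7 TRIM genes and 3.38 ± 0.01 for the other innate ones. TRIM proteins with other symbols were Pml, the organiser of PML bodies, at 51.5 ± 6.85 TPM, the microtubule-bound Mid1 at 24.0 ± 5.91 TPM, Mefv, which encodes pyrin, at 7.98 ± 1.96 TPM, and Mid2 at 0.02 ± 0.01 TPM. By mean level Pml thus lay above all of the 67 members except Trim30a and Trim30d.

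By TPM, 4 members held most of their mean level in transcripts annotated with a retained intron, and by expected counts none did. Of the 35 detected members, 16 have such an isoform in the annotation. Over these 16 the median share of a gene's TPM in retained-intron isoforms was 30.5% ± 1.44, against 24.0% ± 0.441 over the 5980 detected protein-coding genes that have one annotated. The share passed 50% in 4 of the 16 members (25.0%, against 12.8% of those genes). They were Trim3 with 61.6%, 58.7% and 60.1%, Trim28 with 58.0%, 60.5% and 55.3%, Trim24 with 55.6%, 45.2% and 56.6%, and Trim68 with 61.8%, 36.4% and 52.7%. Trim3 and Trim28 passed 50% in each library, and Trim24 and Trim68 did not in replicate 2. Trim21 followed with 37.6%, 38.0% and 38.7%. The lowest shares were those of Trim30a at 6.47% ± 1.26, Trim37 at 13.3% and Trim35 at 14.3%.

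On the scale of counts, which is not per length, the median share was lower and members moved both ways. By expected counts the median share was 14.6% ± 2.59 over members and 13.5% ± 0.119 over protein-coding genes, so the gap between them was under the SD of the members' median. The 4 members over 50% by TPM held 22.2% ± 1.53 (Trim3), 19.9% ± 3.25 (Trim28), 35.0% ± 4.35 (Trim24) and 23.1% ± 8.39 (Trim68) of their counts in these isoforms. For Trim30a the share was 6.47% of TPM and 0.224% of counts. In 3 of the 16 members the share was higher by counts than by TPM. Trim39 had 45.7% of counts and 35.0% of TPM, Trim12a had 41.4% and 15.5%, and Trim26 had 31.7% and 23.6%. The coding isoform Trim30a-201 had 108, 172 and 118 TPM. By TPM, Trim26 and Trim12a had their largest non-coding part in processed transcripts. Trim26-209 had 15.2, 18.7 and 16.9 TPM, above the 7.94 ± 2.87 TPM of the leading coding isoform Trim26-201. Trim12a-206 had 12.7, 17.5 and 14.3 TPM beside 15.8 ± 2.34 TPM for the coding Trim12a-203. By coding isoforms alone the 12 highest members kept 10 of their names, with Trim26 and Trim28 replaced by Trim12c and Trim56, and Trim30a and Trim30d stayed first and second.

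**Figure D4:**
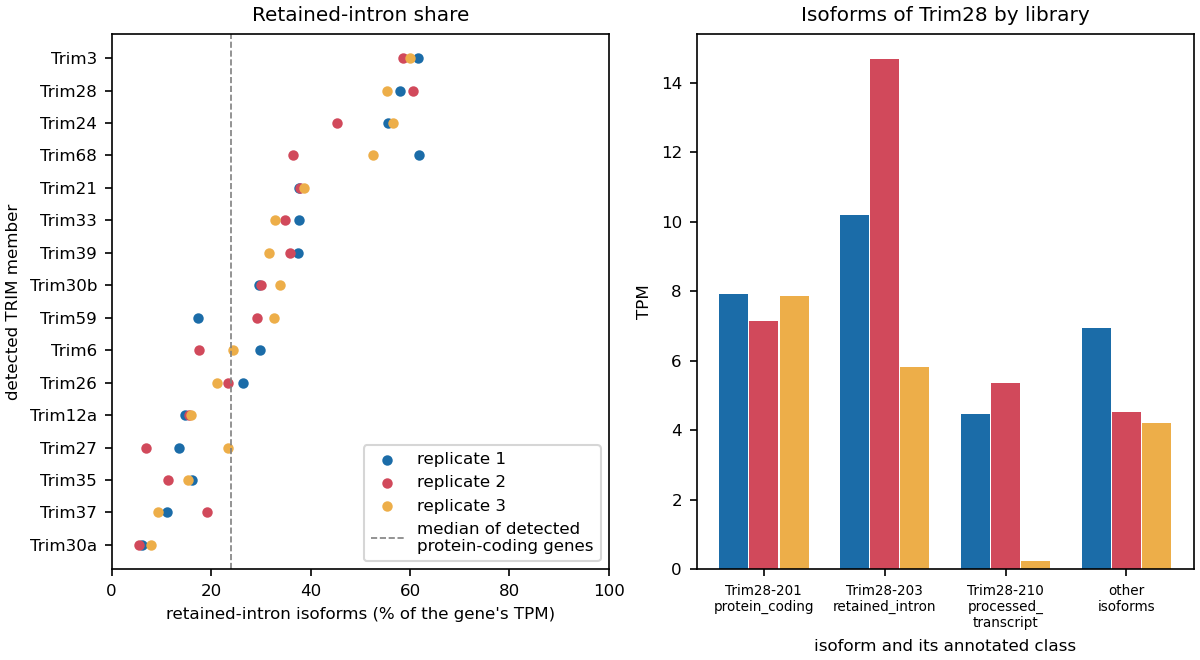
Left, share of a gene's TPM in retained-intron isoforms in percent (x) for the 16 detected members with such an isoform (y), 1 point per library, with a dashed line at the 24.0% median of detected protein-coding genes. Right, TPM (y) of 3 Trim28 isoforms and the sum of the others (x) by library, where Trim28-201 is level and Trim28-203 and Trim28-210 are lowest in replicate 3.

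Spread between libraries was close to that of other genes. The median SD of log2(TPM + 1) was 0.20 over the 37 members averaging 1 TPM or more and 0.20 over 9863 protein-coding genes at that level. The 5 members with the largest SD were Trim28, Trim24, Trim47, Trim30a and Trim2. Of the 35 detected members, 3, 23 and 9 were highest in replicates 1, 2 and 3. Nuclear protein-coding genes held 19.9%, 22.2% and 20.6% of all TPM in replicates 1, 2 and 3. After TPM was rescaled to a fixed sum over those genes, 6, 18 and 11 members were highest in replicates 1, 2 and 3. Replicate 2 also had the lower RNA input, and the part of input in these values was not tested.

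No member was called in 1 library by the count test. Of 14350 genes tested with edgeR, 42 were members, and 0 of them were called in replicate 1, 2 or 3 against the others at an adjusted p under 0.05. Over all genes the called share was 0.202% for replicate 1 (29 genes, 0.139% of those tested higher and 0.0627% lower), 0% for replicate 2 and 0.00697% for replicate 3 (1 gene). At an unadjusted p under 0.05 there were 2, 2 and 1 members, beside 882, 877 and 536 of all 14350 genes. DESeq2, on 24311 genes, called 80, 25 and 34 genes and 0 of 55 members, with 544, 497 and 298 genes and 0 members at an unadjusted p under 0.05. The 5 by edgeR were Trim47 and Trim46 in replicate 1 at log2 fold changes of 1.14 ± 0.42 (SE) and -1.38 ± 0.54, Trim24 and Trim8 in replicate 2 at 0.67 ± 0.20 and -0.57 ± 0.21, and Trim30c in replicate 3 at 0.62 ± 0.23. Their edgeR adjusted p ran from 0.568 to 1.00. For variability beyond the edgeR trend, 0 of 42 members and 0 of 14350 genes (0%) were called, and 0 members and 690 genes had an unadjusted p under 0.05.

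**Figure D5:**
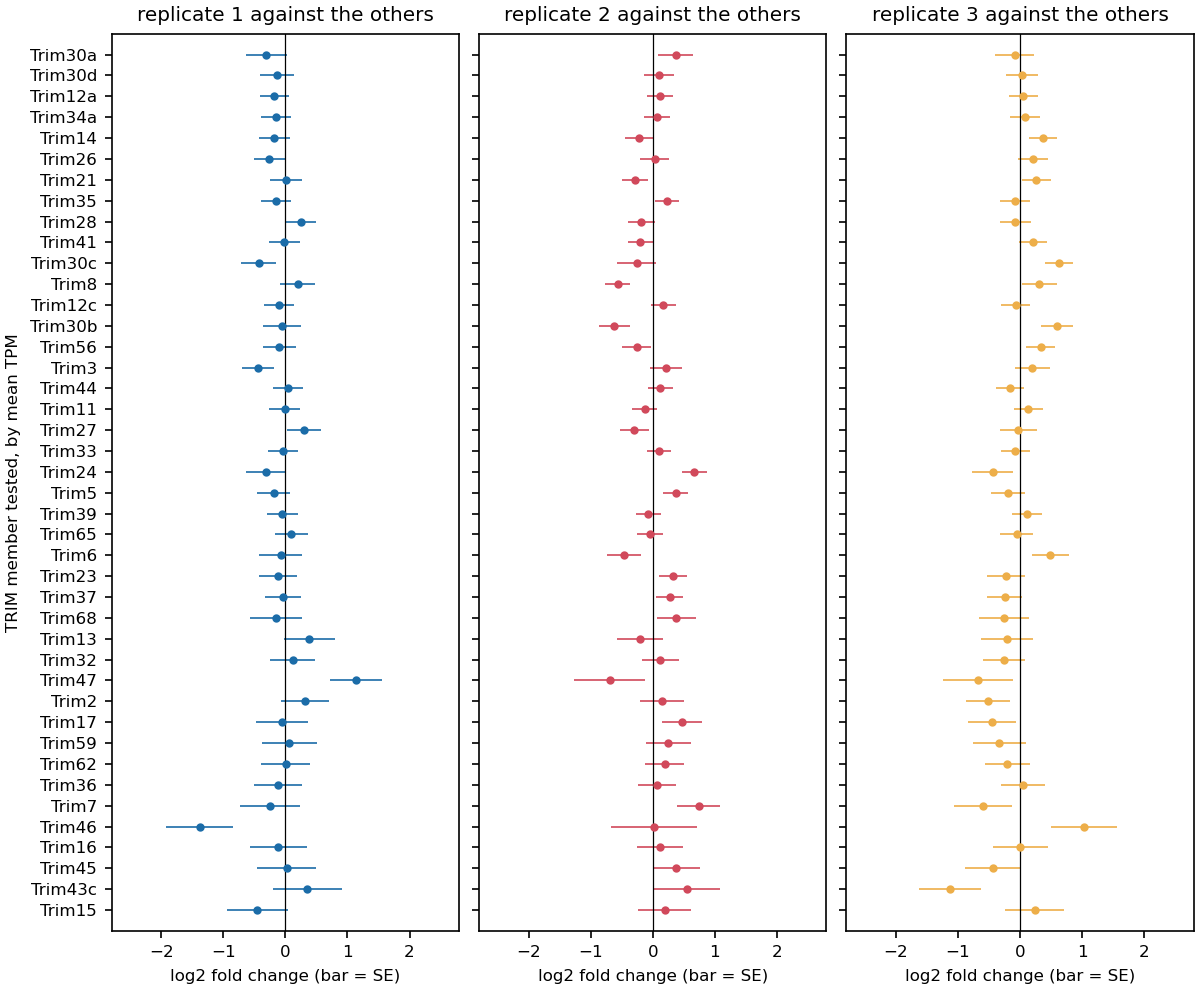
edgeR log2 fold change of each library against the other 2 (x, bars are SE) for the 42 TRIM members tested (y, ordered by mean TPM). None passed the adjusted threshold, and the points farthest from 0 belong to low members such as Trim46 and Trim47.

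The other deposited quantification was close for members averaging 1 TPM or more and differed for several below. Over the 37 at that level, the ratio of the kallisto-format to the RSEM-format level, both rescaled over nuclear protein-coding genes, ran from 0.713 (Trim28) to 1.79 (Trim6), with a median of 0.965. Trim6 was the 1 member beyond 1.5-fold, at 30.8 ± 2.68 against 17.2 ± 4.55 rescaled TPM. Among members under 1 TPM, Trim52 had 30.4 ± 3.51, Trim63 6.47 ± 0.616 and Trim67 1.30 ± 0.358 rescaled kallisto-format TPM where the RSEM-format table lists 0. Trim9 had 0.835 ± 0.0881 against 0.0162 rescaled TPM, and Trim43b 2.44 ± 0.937 against 0.390. Trim34b had 4.51 ± 0.201 against 1.56 ± 0.669 rescaled TPM, so its distance from Trim34a depends on the table. The chromosome 7 cluster held 53.0% ± 1.83 of the family's kallisto-format TPM. Trim30a and Trim30d were first and second in both tables, and 11 of the 12 highest members were shared, with Trim30b in the place of Trim28.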

How the data were processed

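Per the file headers and accompanying notes, the authors aligned reads to mm10 transcripts of GENCODE M21. No version of any tool is named there. The deposited expected counts are unnormalised estimates per gene or transcript, in the columns that RSEM writes. The deposited TPM and posterior mean TPM have a constant total per library, as set by the authors, and the deposited FPKM values are scaled by transcript length and library depth. The posterior SD of the count is used as a deposited score. A kallisto-format table, per the file headers, gave further estimated counts and TPM, which were summed per gene.

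Members and gene lists were chosen with earlier results of these data known. Named were every detected member, with values per library for the 12 highest, 4 lowest detected, 3 highest undetected, 5 most variable and the chromosome 7 copies, and the extremes of the isoform and assignment measures. The promoter motifs, Trim28 isoforms, Trim41 overlap and members at 0 were chosen after their values were seen. A partner gene within this rule is not reported here. Levels are log2(TPM + 1). The posterior SD holds only the uncertainty of sharing reads between genes, whereas counting noise had first been assumed to be part of it. Rounded counts kept by filterByExpr were scaled by TMM and tested with edgeR 4.0.16 (quasi-likelihood, Benjamini-Hochberg, threshold 0.05), with DESeq2 1.42.0 as the alternative, in R 4.3.3. The edgeR tests of 1 library and of variability were also run on simulated counts, and the outcome is not given here. With 1 library against 2, and no statement that cultures were independent, p-values measure only the spread between these samples. Python 3.11.15, pandas 2.3.3, numpy 2.4.6, Biopython 1.88 and matplotlib 3.10.9 were used.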

Additional observations from a re-analysis of the deposited data

How the results depend on the processing

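Detection kept within 1.5 times of 35 members under every alternative run, from 33 (coding isoforms only, an alternative chosen after seeing the data) to 47 (rescaled kallisto-format TPM), and at 35 to 36 without 1 replicate. The family median of log2(TPM + 1), 1.16, was 0.41 with a pseudocount of 0.1, 3.30 over members averaging 1 TPM or more, 1.47 for FPKM, 2.78 after rescaling over nuclear protein-coding genes and 2.97 for rescaled kallisto-format TPM. The family share, 0.345%, was 0.375% by expected counts. The median retained-intron share, 30.5%, was 32.8% in the kallisto-format table, 14.6% by expected counts and 36.7% over all isoforms not annotated as protein_coding. The causes of these shifts were not tested. Calls of members stayed at 0 in each of the edgeR and DESeq2 alternatives run, while calls over all genes moved. From 29, 0 and 1 genes for replicates 1, 2 and 3, they went to 0, 349 and 161 with no filter on low counts, 80, 25 and 34 by DESeq2, and 2, 0 and 1 with DESeq2 size factors in edgeR. For variability they went from 0 to 109 genes with no filter and 24 without replicate 1. Of the 39 named members, 17 moved by more than 1 SD between tables and 17 by coding isoforms alone, and 4 with posterior mean TPM. No paired analysis was possible because there is 1 group. The TPM of the lowest members rests on few reads, 64 to 89 counts for Trim59, which limits their order.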
